A study of Homo sapiens with 5 samples.

Results

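The 10 genes described here encode 4 inhibitors of DNA binding (ID1, ID2, ID3 and ID4) and components of bone morphogenetic protein (BMP) and activin signalling. These components are the ligands BMP2 and BMP4, the activin subunits INHBA and INHBB, the activin-binding protein follistatin (FST) and the inhibitory SMAD protein SMAD6. They were listed by symbol and selected on their levels and differences on these same arrays, in the comparisons given below, so those values are a description and received no test. Each was taken from features annotated with exactly 1 gene symbol, and the brightest such feature of a gene was kept. All 10 were found among 14232 measured genes, each with 1 feature, so no choice between features was needed. A further feature, annotated with both ID2B and ID2, was left out by this rule; its log2 level lay between 0.98 and 1.19 on the 5 arrays.

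The values come from 5 Affymetrix exon arrays, 1 for each RNA sample of 2 established human lung cancer lines. A549 cells, which per the submitters carry an LKB1 loss-of-function mutation and raised NEDD9, were profiled after knockdown with shNEDD9 #1 and with shNEDD9 #2 (n = 1 array for each hairpin, n = 2 for knockdown) and as a control (n = 1). CRL-5907 cells, which per the submitters have wild-type LKB1 and little NEDD9, were profiled with NEDD9 overexpression (n = 1) and as a control (n = 1). NEDD9 is a scaffold protein of focal adhesions. The labels do not say how the hairpins or NEDD9 were delivered, whether control cells carried a construct, whether cells were cloned or pooled, or whether arrays came from separate cultures. Both hairpins are set against the same A549 control array, and the spread between them leaves out the error of that control.

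BMPs bind paired serine/threonine kinase receptors that phosphorylate SMAD1, SMAD5 and SMAD9, and ID1, ID2 and ID3 are among their best known direct targets. Activins, which are dimers of inhibin beta subunits, signal through related receptors to SMAD2 and SMAD3, and follistatin holds activins away from these receptors. ID proteins have a helix-loop-helix domain without a DNA-binding basic region. They pair with E proteins such as TCF3, TCF4 and TCF12 and keep them from DNA.

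Promoter sequences are given for the 4 ID genes, because they form 1 family and differ in their values with knockdown, and for FST and SMAD6, whose products restrain activin and BMP signalling. Each sequence is the stretch of 250 bases before the first RefSeq start, in GRCh38.p14, 5′ to 3′ along the gene, in lower case. Capitals mark matches to GGCGCC, a GC-rich element of BMP-responsive SMADs, GTCTAGAC, a palindromic SMAD box, CANNTG, the E-box, and TGACGTCA, the cAMP response element. All motifs were searched on both strands. The positions are chr20:31605039-31605288, plus strand, for ID1, chr2:8681806-8682055, plus strand, for ID2, chr1:23559502-23559751, minus strand, for ID3, chr6:19837120-19837369, plus strand, for ID4, chr5:53480379-53480628, plus strand, for FST, and chr15:66701986-66702235, plus strand, for SMAD6.
ID1: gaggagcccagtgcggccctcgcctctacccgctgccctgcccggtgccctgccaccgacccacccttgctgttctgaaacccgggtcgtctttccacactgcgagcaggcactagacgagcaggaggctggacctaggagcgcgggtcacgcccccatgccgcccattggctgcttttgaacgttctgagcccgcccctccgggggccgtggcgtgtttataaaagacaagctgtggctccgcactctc
ID2: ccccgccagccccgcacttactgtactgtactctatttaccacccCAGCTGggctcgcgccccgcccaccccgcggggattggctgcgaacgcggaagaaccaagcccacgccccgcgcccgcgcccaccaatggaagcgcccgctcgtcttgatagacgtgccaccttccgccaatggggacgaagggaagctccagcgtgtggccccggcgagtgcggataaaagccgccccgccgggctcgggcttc
ID3: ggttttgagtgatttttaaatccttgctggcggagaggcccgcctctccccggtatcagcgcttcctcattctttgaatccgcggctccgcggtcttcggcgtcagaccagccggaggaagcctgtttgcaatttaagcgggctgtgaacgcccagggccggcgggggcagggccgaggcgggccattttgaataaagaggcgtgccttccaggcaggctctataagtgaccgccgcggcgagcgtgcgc
ID4: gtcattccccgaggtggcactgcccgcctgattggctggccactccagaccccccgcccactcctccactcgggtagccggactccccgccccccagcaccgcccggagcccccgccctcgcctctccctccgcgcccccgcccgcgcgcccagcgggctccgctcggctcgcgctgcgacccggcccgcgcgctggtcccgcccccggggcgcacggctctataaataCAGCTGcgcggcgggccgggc
FST: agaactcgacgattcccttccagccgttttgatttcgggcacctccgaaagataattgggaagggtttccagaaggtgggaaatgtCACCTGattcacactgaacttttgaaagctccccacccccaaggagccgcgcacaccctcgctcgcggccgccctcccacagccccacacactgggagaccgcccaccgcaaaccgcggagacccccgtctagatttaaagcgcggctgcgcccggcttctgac
SMAD6: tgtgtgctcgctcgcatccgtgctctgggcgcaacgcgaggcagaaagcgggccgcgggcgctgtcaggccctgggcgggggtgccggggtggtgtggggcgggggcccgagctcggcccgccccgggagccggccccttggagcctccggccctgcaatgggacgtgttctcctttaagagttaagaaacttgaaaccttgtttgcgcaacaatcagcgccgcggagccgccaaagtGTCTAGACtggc
SMAD6 alone of the 9 genes with a RefSeq window held GTCTAGAC, at positions -12 to -5 from its start, and this palindrome was present in 0.182% of 35116 windows of the same length. It contains the SMAD box GTCT in each orientation, which are the 2 GTCT matches of SMAD6. The ID2 and ID4 windows each held the E-box match CAGCTG, which in ID4 lies at -21 to -16 and in ID2 at -205 to -200, and the FST window held CACCTG at -164 to -159. An E-box was also present at 1 of the 3 BMP4 starts, and in 61.8% of all windows. ID1 and ID3 held none of the 4 capitalised motifs. The plain SMAD box GTCT, found in 77.5% of windows, occurred 3 times in ID1 and in FST, 2 times in ID2, ID3 and SMAD6 and 1 time in ID4; it is not capitalised on its own. GGCGCC, found in 16.4% of windows, was present 2 times in INHBB and 1 time at another BMP4 start. TGACGTCA, found in 1.65%, was in none of the members' windows. These matches are letters in a window and say nothing about binding.

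NEDD9 itself had log2 levels of 8.35 and 8.52 with hairpins 1 and 2, against 8.94 on the A549 control, and of 9.49 with overexpression, against 4.66 on the CRL-5907 control. NEDD9 was thus 33.4% and 24.8% lower with hairpins 1 and 2. The CRL-5907 control value lay below its array's median, so no fold is given for overexpression. Among 8 epithelial markers, 7 lay above the array median on all 5 arrays, and CLDN4 did so in CRL-5907 only. These markers bear on epithelial character, and the lung origin rests on the labels. Of 8 fibroblast markers 7 lay below the median on all arrays, as did 7 of 8 endothelial markers. Of 6 measured leukocyte markers 4 lay below it on all arrays, among them PTPRC, the pan-leukocyte marker, at 1.72 on every array, while CD68 lay above it on all 5 and CD14 on 4. Array medians over named features ran from 5.69 to 5.85. To be counted below, a gene had to exceed the median of the array on which it was brightest, among the arrays compared. Values under the median were not shown to exceed background, and no fold is given against them. A value above the median is not thereby shown to be detected, since detection per feature is unknown.

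**Figure D1:**
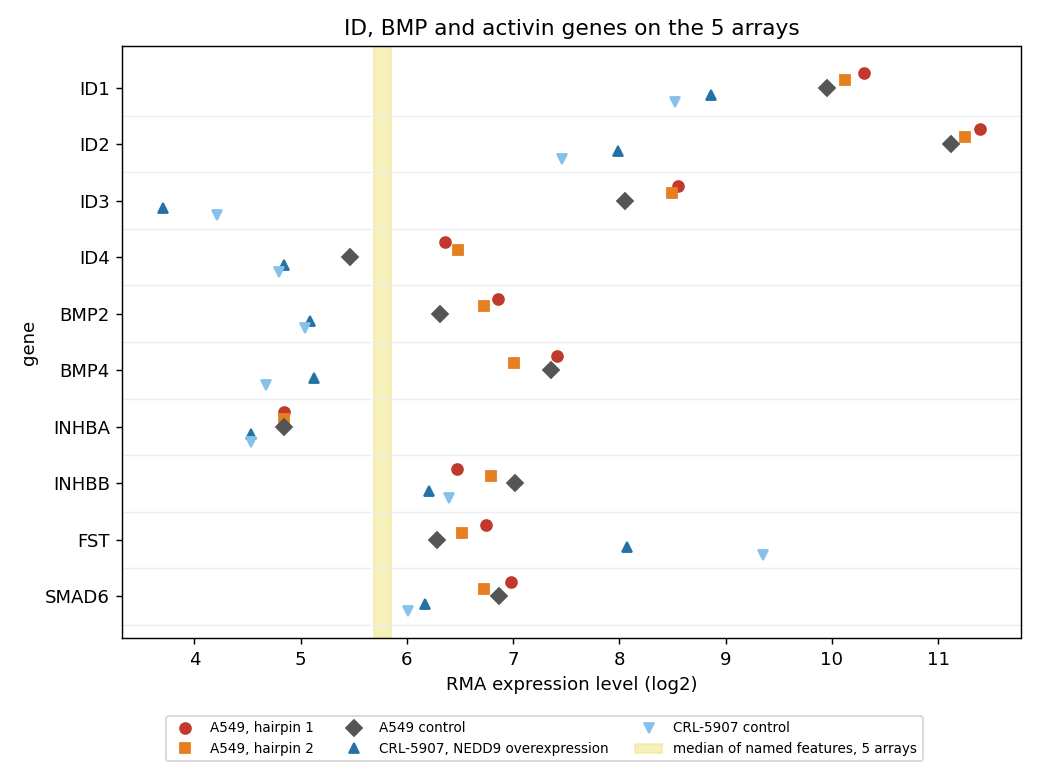
RMA expression levels (log2, horizontal axis) of the 10 genes (rows) on the 5 arrays, 1 symbol per array, with the range of the arrays' medians as a vertical band. All A549 symbols lie to the right of both CRL-5907 symbols for 9 genes, and FST is the reverse; ID4 lies above the band only with the 2 hairpins.

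With NEDD9 knockdown in A549, ID4 stood out among the ID genes. Its log2 level was 6.36 with hairpin 1 and 6.48 with hairpin 2, against 5.47 on the control array. Both hairpin arrays lay above their medians and the control lay below its own, so the low value was not shown to exceed background. The log2 differences were 0.89 and 1.01, with a mean of 0.95 ± 0.08 (SD, n = 2). The hairpins differed from each other by 0.12, below the SD of 0.167 that this difference had over the 500 genes of most similar level. That spread leaves out the error of the shared control array. ID4 passed the level filter only through the hairpin arrays. With the filter raised to the 75th percentile of an array, it was too dim to be counted. Among the leukocyte markers LYZ, which encodes lysozyme, also differed with knockdown, at 5.55 and 5.34 with the hairpins, against 3.55 on the control, all below the medians. The summed log2 level of the 6 leukocyte markers was 30.1 and 29.3 with the hairpins, against 28.5 on the control. LYZ was the 1 marker of the 6 above control with both hairpins. Below control with both were 3, among them CD14, at 6.08 and 5.63 with the hairpins, against 6.47 on the control. The part of leukocyte markers in the knockdown values was not tested.

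The other ID genes were above control by smaller amounts and none reached 1.5-fold. ID3 had log2 levels of 8.55 and 8.50 with the hairpins, against 8.05 on the control (difference 0.47 ± 0.04, SD, n = 2). The hairpin values lay within 0.05 of each other. ID1 had log2 levels of 10.30 and 10.13 with the hairpins, against 9.96 on the control (0.26 ± 0.13). ID2 had levels of 11.39 and 11.25 with the hairpins, against 11.12 on the control (0.20 ± 0.10). For ID1 and ID2 the difference with hairpin 2 (0.17 and 0.13) was about the size of the difference between the hairpins (0.18 and 0.14). All 4 ID genes were thus higher with both hairpins, as were 53.8% of all genes that passed the level filter. The differences of ID1 and ID2 were not separable from the spread between arrays. Those of ID3 and ID4 were not tested, and their spread leaves out the error of the single control array.

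Among the ligands, BMP2 had log2 levels of 6.85 and 6.73 with the hairpins, against 6.32 on the control, a difference of 0.47 ± 0.09 (SD, n = 2), or 1.45-fold and 1.33-fold. BMP4 had levels of 7.42 and 7.00 with the hairpins, against 7.36 on the control. The hairpins fell on opposite sides of the control for BMP4, so no direction can be given. INHBB, the subunit of activin B, had levels of 6.47 and 6.79 with the hairpins, against 7.02 on the control (-0.39 ± 0.23), and was the 1 member below control with both. Its difference with hairpin 1, -0.55, was larger than that with hairpin 2, -0.23. Hairpin 1 minus hairpin 2 was -0.32, larger in size than the hairpin 2 difference. The INHBB difference was thus not separable from the spread between arrays. INHBA, the subunit of activin A, had the identical value of 4.84 on all 3 A549 arrays, below every median; RMA can return equal values on several arrays (9.81% to 11.4% of genes for a pair of A549 arrays), and the 0.00 does not show that the gene was unchanged.

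Of the inhibitors, FST had log2 levels of 6.74 and 6.52 with the hairpins, against 6.28 on the control (0.35 ± 0.16, SD, n = 2). Its difference with hairpin 2, 0.23, was about the size of the difference between the hairpins, also 0.23. The FST difference with knockdown was thus not separable from the spread between arrays. SMAD6, which blocks BMP receptor signalling and is itself induced by it, had levels of 6.98 and 6.73 with the hairpins, against 6.87 on the control, on either side of it.

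Of the 10 members 9 passed the level filter in A549. With both hairpins 1 of them (ID4) exceeded control by 1.5-fold or more, and 0 were under it by as much. Over all genes that passed, 0.709% were higher and 0.134% lower by this rule, 0.843% in either direction. Nothing is read from the members' count, since these values chose them. In all, 6 members were above control with both hairpins (ID1, ID2, ID3, ID4, BMP2 and FST), and 1 below it with both (INHBB), where 53.8% and 21.5% of genes that passed the filter were so. All 7 are among the 9 that passed. Over all 10 members the median difference was 0.31 with hairpin 1 and 0.15 with hairpin 2, beside 0.10 and 0.04 over all genes that passed. The members' medians include INHBA, which did not pass. No test was applied to the members. Over all 7473 genes limma called 0% at an adjusted p under 0.05 after Benjamini-Hochberg adjustment (lowest adjusted p = 0.276), with 1309 genes at an unadjusted p under 0.05. That fit has 1 residual degree of freedom and assumes that the single control array varies like the hairpin arrays.

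**Figure D2:**
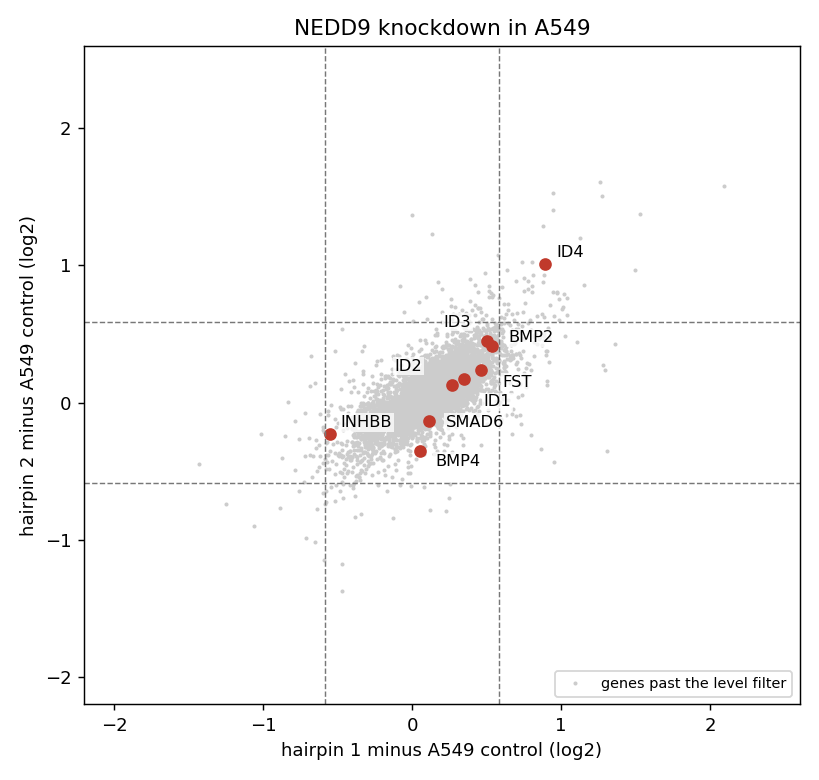
Log2 differences from the A549 control array with hairpin 1 (horizontal axis) and hairpin 2 (vertical axis) for 7473 genes that passed the level filter (grey) and the 9 members among them (red); dashed lines mark 1.5-fold. ID4, at 0.89 and 1.01, is the 1 member past both lines; the axes share a control array, which by itself makes points lie along the diagonal.

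With NEDD9 overexpression in CRL-5907, FST was the member farthest from its control, and on the lower side. Its log2 level was 8.07 with overexpression, against 9.35 on the control, a difference of -1.28, or 2.43-fold lower. Both values lay well above the array medians, and 2 of 7406 genes that passed the level filter were lower still by this difference. Nothing is read from this rank, since these values chose the members. The overexpressing CRL-5907 array remained above all 3 A549 arrays for FST. With 1 array in each condition the difference has no replicate check and no test.

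ID2 and ID1, with levels above the median in CRL-5907, lay on the higher side of control. ID2 had a log2 level of 7.99 with overexpression, against 7.46 on the control (difference 0.53, or 1.44-fold). ID1 had 8.86 with overexpression, against 8.52 on the control (0.34). ID3 was below the median on both arrays, at 3.71 with overexpression and 4.21 on the control (-0.51), and ID4 was below it too, at 4.84 and 4.80. Neither of those was shown to exceed background in this line, so no direction is read from the -0.51 of ID3.

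The ligands were low in CRL-5907. BMP4 had a log2 level of 5.13 with overexpression, against 4.68 on the control, BMP2 had 5.09 against 5.05, and INHBA had 4.54 against 4.53, all below the medians. INHBB lay above the median, at 6.21 with overexpression and 6.40 on the control (-0.19). SMAD6 had 6.17 with overexpression, against 6.01 on the control (0.16). In A549 the SD of the difference between the 2 hairpin arrays over genes of like level was 0.181 for INHBB and 0.159 for SMAD6, about the size of these differences; the spread between CRL-5907 arrays is unknown.

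Of the 10 members 5 passed the level filter in CRL-5907 (ID1, ID2, FST, INHBB and SMAD6). Of these 1 was at least 1.5-fold lower and 0 were at least 1.5-fold higher, beside 0.851% lower and 3.5% higher over all genes that passed, or 4.35% in either direction. Over all 10 members the median difference was 0.04, beside 0.05 over those genes and 0.00 over all 14232 genes. The members' median includes genes that did not pass the filter, so the sets are not alike. ID3 and FST were above control with both hairpins in A549 and below control with overexpression in CRL-5907. Such opposite placing was found for 26.6% of the 6843 genes that passed the filter in both lines, and of the pair only FST passed it in both. The FST difference with knockdown was not separable from the spread between arrays. ID1 and ID2 lay above control under both manipulations. Of genes that passed the filter of each line, 53.8% were above control with both hairpins and 58.7% with overexpression. The share above under both was not computed, and nothing is read from this placing. ID4 and BMP2 were above control with both hairpins. Their CRL-5907 values lay below the medians, so no direction is read from their 0.04 with overexpression.

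The other genes of these pathways were examined by role, from 6 lists with 115 measured genes. In A549 53 passed the level filter, and HEY1 was the 1 gene past 1.5-fold on the higher side with each hairpin, with 0 on the lower side, beside 0.709% and 0.134% of all genes that passed. HEY1, a helix-loop-helix repressor that is a target of Notch and BMP signals, had log2 levels of 5.97 and 6.09 with the hairpins, against 5.16 on the control (0.87 ± 0.08, SD, n = 2). Like ID4 it lay above the median with the hairpins only. Its relative HEY2 had levels of 5.40 and 5.60 with the hairpins, against 4.77 on the control, all below the medians and therefore not counted.

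The remaining lists held no gene past 1.5-fold with both hairpins, and the genes farthest from control among those that passed the filter were as follows. BMP6, a further BMP ligand, was at 0.66 and 0.31, and BMP1, a protease that processes matrix proteins and the BMP antagonist chordin, at 0.01 and 0.30. BAMBI, a decoy receptor without a kinase domain, was at 0.57 and 0.30, and SMAD1, which carries BMP signals, at 0.33 and 0.24. These are log2 differences with hairpins 1 and 2, and for BMP6 and BMP1 the hairpins were apart by more than either smaller value. The BMP type I receptor BMPR1B was at 0.30 and 0.05 and the RGM receptor NEO1 at 0.23 and 0.00. In the list of secreted antagonists VWC2 was at -0.33 and -0.18 and FSTL4 at 0.21 and 0.18. Among partners of ID proteins, ETS2 was at 0.42 and 0.25 and the E protein TCF12 at 0.35 and 0.27. Over all 115 genes the median difference was 0.00 with hairpin 1 and -0.02 with hairpin 2. The list of SMADs and intracellular regulators had medians of 0.14 and 0.07, with 12 of 22 measured genes above control with both hairpins and 3 below with both. Of the 22 genes 18 passed the filter. All genes that passed the filter had medians of 0.10 and 0.04, and 53.8% of them were above control with both hairpins, so the list lay near the background.

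In CRL-5907 52 of the 115 passed the level filter, 1 was at least 1.5-fold higher with NEDD9 overexpression, and 0 were at least 1.5-fold lower, beside 3.5% and 0.851% of all genes that passed. The 1 gene was NOG, which encodes noggin, a secreted antagonist that binds BMP2 and BMP4. NOG had a log2 level of 6.18 with overexpression, against 5.09 on the control, a log2 difference of 1.09, with the control value below the median and not shown to exceed background. CHRDL2, a chordin-like antagonist, had 4.38 with overexpression, against 3.19 on the control, both below the medians. In the other lists the farthest genes that passed were BMP1 (0.44) and GDF7 (-0.01) of the ligands, TGFBR3, an inhibin and BMP co-receptor (0.40), ACVR1, a BMP type I receptor (0.25), TOB2 (0.46), SMAD2, which carries activin signals (0.45), ATOH8 (-0.52), EOMES (-0.44), ETS2 (0.21) and ELK4 (0.19). None of these reached 1.5-fold. The list of SMADs and regulators had 20 of 22 measured genes above control (median 0.16), and 16 of the 22 passed the filter. Of all genes that passed it 58.7% were above control, and their median was 0.05. The list's values include genes that did not pass, so the sets are not alike. With 1 array in each condition nothing is read from the list's count.

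**Figure D3:**
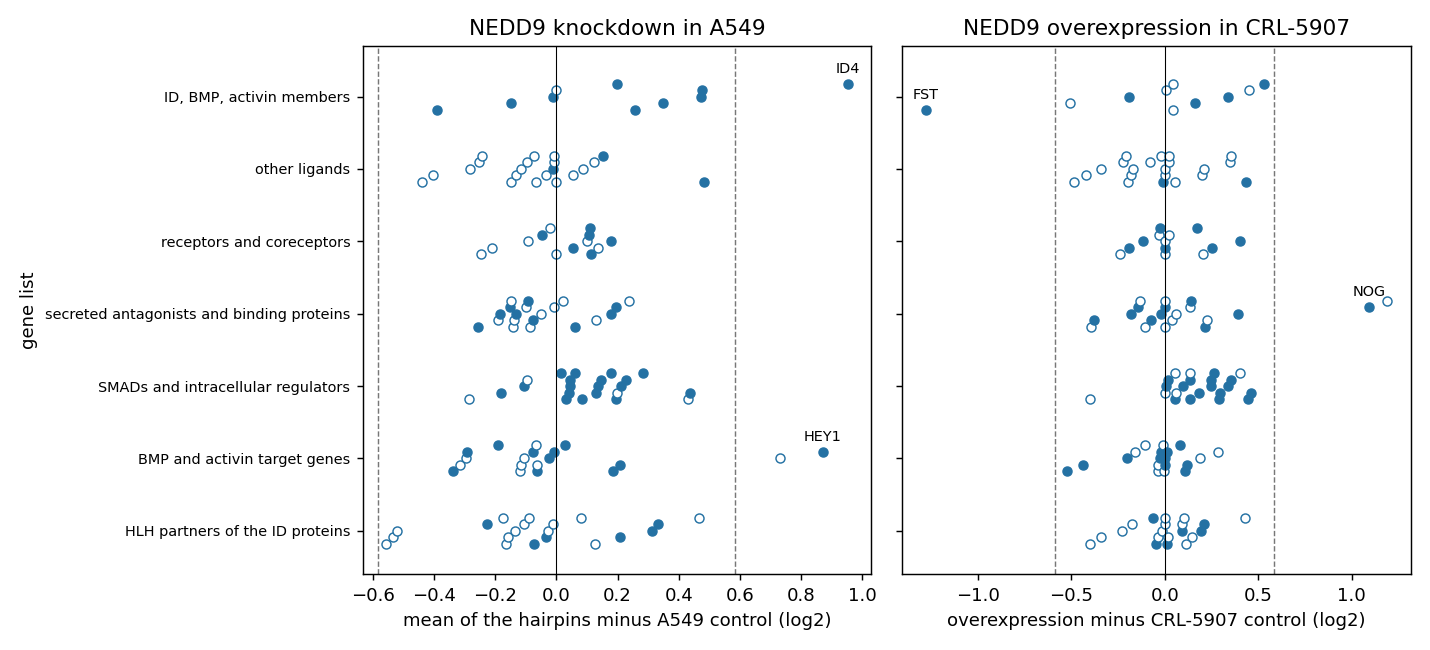
Log2 differences from the control of the same line for the members and 6 lists of other pathway genes (rows), with knockdown on the left (mean of 2 hairpins) and overexpression on the right (1 array each); filled points passed the level filter and dashed lines mark 1.5-fold. The named points are those counted: ID4 and HEY1 with knockdown, FST and NOG with overexpression.

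Between the control arrays 5 members were at least 2-fold higher in A549 and FST was lower. In control A549 cells ID3 had a log2 level of 8.05, against 4.21 in control CRL-5907 cells, a difference of 3.84. ID2 had 11.12 in A549, against 7.46 in CRL-5907 (3.66, or 12.7-fold). ID1 had 9.96 in A549, against 8.52 in CRL-5907 (1.43, or 2.70-fold). ID1, ID2 and ID3 were thus all counted as at least 2-fold higher in A549, while ID4 (5.47 in A549, 4.80 in CRL-5907) lay below both medians. Whether BMP signals bear on these levels was not tested. BMP4 had 7.36 in A549, against 4.68 in CRL-5907 (2.68), and BMP2 had 6.32 in A549, against 5.05 in CRL-5907 (1.27). For ID3, BMP4 and BMP2 the CRL-5907 value lay below the median, so only the log2 difference is given. SMAD6 and INHBB were higher in A549 by less than 2-fold, at 6.87 in A549 against 6.01 in CRL-5907 for SMAD6 and at 7.02 against 6.40 for INHBB. INHBA was below the medians, at 4.84 in A549 and 4.53 in CRL-5907.

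FST ran the other way. FST had a log2 level of 6.28 in control A549 cells, against 9.35 in control CRL-5907 cells, a difference of -3.07, or 8.38-fold lower in A549. Of 7716 genes that passed the level filter on the control arrays, 40 were lower in A549 by a larger difference than FST. Nothing is read from this rank either, since the members were chosen on these values. In total 8 members passed the filter, of which 5 were at least 2-fold higher in A549 and 1 was at least 2-fold lower, beside 9.88% and 5% of all genes that passed, or 14.9% in either direction. By any amount 9 of the 10 members were above in A549, where 55.1% of genes that passed were. ID4 and INHBA, both among these members, did not pass, so the sets are not alike. ID3, BMP2 and BMP4 passed through the A549 array only. All 3 A549 arrays lay above both CRL-5907 arrays for 9 members and below both for FST, orders that were found for 40.6% and 27.2% of the 7716 genes that passed. The line difference rests on 1 control array of each line, and line, culture and array cannot be told apart. The CRL-5907 control array enters both FST differences. Without it, FST at 8.07 with overexpression in CRL-5907 was still above all 3 A549 arrays.

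**Figure D4:**
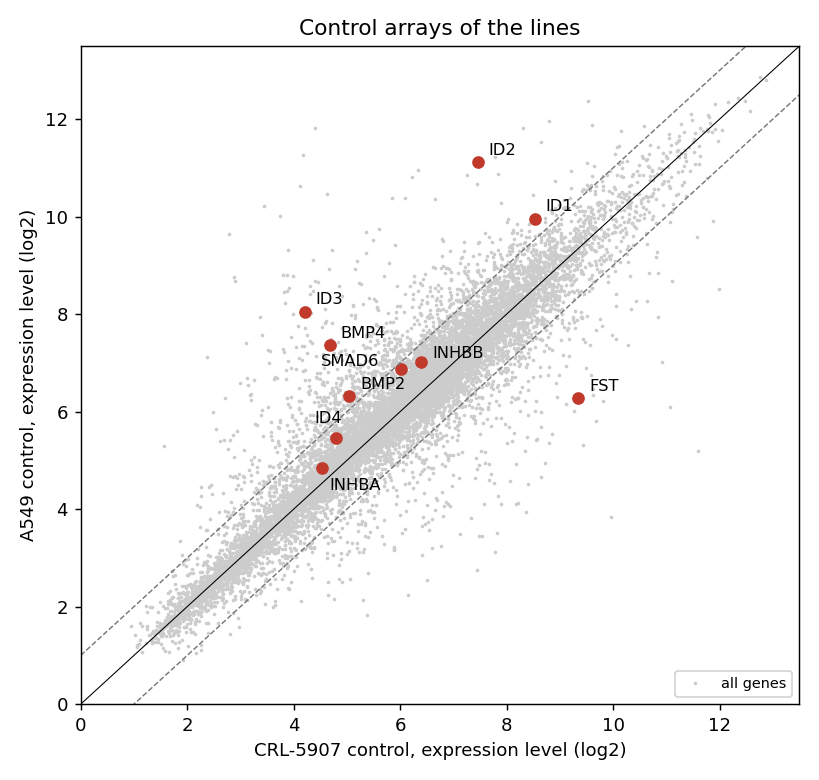
Log2 expression level on the A549 control array (vertical axis) against the CRL-5907 control array (horizontal axis) for 14232 genes (grey) and the 10 members (red); the solid line marks equality and the dashed lines 2-fold. ID2, ID3 and BMP4 lie far above the upper line and FST far below the lower one.

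Among the other pathway genes, 53 passed the filter between the control arrays, 7 were at least 2-fold higher in A549 and 2 at least 2-fold lower, beside 9.88% and 5% of all genes that passed. The 9 genes are given as values, with nothing read from their number. BMP6 had a log2 level of 7.82 in A549, against 4.58 in CRL-5907 (3.23). Other BMP ligands, such as BMP5 and BMP7, lay below the medians in both lines. The other higher genes were TBX3, a T-box repressor (2.79), FSTL4 (2.22), the BMP type II receptor BMPR2 (1.25), CRIM1, a membrane protein that binds BMPs (1.19), SOX9 (1.18) and FKBP1A, which binds type I receptors (1.06). For BMP6 and TBX3 the CRL-5907 value lay below the median. FKBP1A was under 2-fold after centring on array medians or a further quantile normalization. The lower genes were ACVR1B, the activin type I receptor (-1.36), and TGFBR3 (-1.08). No partner of ID proteins reached 2-fold; ELK4 (-0.68) and TCF12 (0.62) were the farthest.

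The genes closest in pattern to single members were found by Euclidean distance over the 5 arrays, after each gene was centred on its own mean, among 7984 genes. For ID4 they were NPY6R (distance 0.18), HEY1 (0.25) and CEBPZ (0.29), where the median distance to all genes was 1.55. The distance uses the same 5 values as the differences above and adds no independent evidence. For FST they were SELENOP (0.44), DIRAS2 (0.52) and SCNN1A (0.56), with a median of 2.68. For ID2 they were GPC6 (0.18), AMIGO2 (0.23) and PLA2G4A (0.29), with a median of 3.81, and for ID3 TSPAN31 (0.30), DNAJC12 (0.38) and GABRA5 (0.46), with a median of 4.78. For FST, ID2 and ID3 the distance is set mostly by the difference between the lines, with the A549 arrays on one side and the CRL-5907 arrays on the other.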

How the data were processed

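Per the submitters' processing notes, the authors made the deposited log2 expression values with RMA and Affymetrix Power Tools; versions and genome build are not given in the sources used here. RMA corrects background, quantile-normalizes the arrays and summarises probes per feature. The log2 scale was taken from the values (0.58 to 13.1). Of 22011 features, 14432 had 1 gene symbol in the platform annotation and gave 14232 genes; 2408 had several and 5171 had none. Scanner files were not used here, so detection per feature is unknown. The number of arrays limits the precision.

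Samples were grouped by title; the hairpin 2 description says NEDD10, and its title was followed. The log2 difference from the control of the same line was taken, and genes were counted at 1.5-fold (both hairpins, or overexpression) or 2-fold (between lines). limma 3.58.1 in R 4.3.3 (eBayes with trend) was fitted over all genes that passed the level filter. The counting steps were tested on simulated data. Members and lists were chosen with earlier results of these data known. Named pathway genes were those past the fold or, where a list had none, the 2 farthest from control; HEY2 and CHRDL2 were named after their values were seen. Of the 136 pathway genes listed, 115 were measured with 1 symbol. Alternatives covered array scaling, a gene's features, the level filter, each hairpin alone and limma's settings.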

Additional observations from a re-analysis of the deposited data

How the results depend on the processing

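ID4 with knockdown and FST with overexpression stayed past 1.5-fold in the same direction under centring on array medians, a further quantile normalization, removal of the trend with level, the mean of a gene's features and no level filter. ID4 did so with each hairpin alone, at 1.01 for hairpin 2 and 0.89 for hairpin 1. At a filter on the 75th percentile ID4 no longer passed the filter, leaving 0 members higher with knockdown, 0 other pathway genes higher with knockdown and 0 with overexpression, where HEY1 and NOG also dropped out. Without a level filter 2 other pathway genes were higher with both hairpins (HEY1 and HEY2) and 2 with overexpression (NOG and CHRDL2). With hairpin 2 left out, 2 pathway genes were higher (BMP6 and HEY1), and with hairpin 1 left out 1 was. limma called 3 genes after a further quantile normalization (FGA, INSL4 and SERPINB11, adjusted p = 0.0427 each) and 0 under its 6 other alternatives; none of them is a member.

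Of 30 member differences 26 kept their sign under every scaling and hairpin setting. The exceptions were INHBA with either manipulation and BMP4 and SMAD6 with knockdown. The size also depended on scaling: the ID3 difference with knockdown, 0.47 on the deposited values, was 0.36 after a further quantile normalization. The SD of 0.04 between hairpins does not include this. The A549 control's median lay 0.11 above that of the CRL-5907 control, and the difference of FST between the lines was -3.20 to -3.07 over the settings. Of all genes counted with knockdown 84.1% were higher, and 71.7% after a further quantile normalization; with overexpression these shares were 80.4% and 64.8%, and between lines 66.4% and 57.5%. Over all genes, 53 higher and 10 lower with knockdown became 43 and 17 after a further quantile normalization, 44 and 16 with the trend removed, 113 and 43 without a filter, 20 and 3 at the 75th percentile, 192 and 40 with hairpin 1 alone and 101 and 36 with hairpin 2 alone. With overexpression 259 and 63 became 190 and 103 after quantile normalization, 413 and 192 without a filter and 151 and 34 at the 75th percentile; between lines 762 higher became 498 at that percentile. There BMP2 was no longer counted, leaving 4 members higher in A549, and FKBP1A fell under 2-fold after median centring or quantile normalization, leaving 6 other pathway genes. No paired analysis was possible because each control group holds 1 array, so the groups compared share fewer than 2 replicate numbers. Single control arrays and unknown detection limit every value.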
